A study of Mus musculus with 2 samples.

Results

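Transcripts of the Notch pathway were described in mononuclear cells of mouse limb muscle, for 4 receptors (Notch1, Notch2, Notch3 and Notch4), 4 ligands (Dll1, Dll4, Jag1 and Jag2) and 2 target genes (Hey1 and Heyl). The genes were chosen by symbol and were all present among the 32285 genes counted. In the cells kept they held 31283 of all unique molecular identifiers (UMIs, each standing for 1 captured transcript), a share of 0.0421%.

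Notch receptors are cut at the cell surface when a Delta or Jagged ligand on a neighbouring cell pulls on them, and the part released inside the cell moves to the nucleus and switches on genes such as those of the Hes and Hey families with the DNA-binding protein Rbpj. In vessels, Dll4 and Notch1 are known for arterial specification and for restraining sprouting, while Jag1 on endothelium and Notch3 on mural cells are known for the coating of vessels with smooth muscle. In muscle stem cells, Notch signals and the Hey genes are known for holding satellite cells in quiescence.

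Both groups were aged C57BL/6 mice injected intraperitoneally, one with the solvent DMSO and the other with the drug Maraviroc (MVC). The labels give the treatment only, and the study's text places the sequenced mice in its high-dose, short-term regime, begun in aged mice. The number of mice behind each library is not given in the sources used here. Live cells were sorted from limb muscle after red cells had been lysed, and 1 droplet-based single-cell library was made per group. With 1 library a group no test between DMSO and MVC is possible, so each difference describes these libraries, and the spread between mice was not measured.

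A cell was kept if it had 500 or more genes and no more than 10% of its UMIs from mitochondrial genes, which left 5437 cells of the DMSO library and 5454 of the MVC library. Their median depth was 5802 UMIs in DMSO and 5195 in MVC. The libraries shared 8 barcodes among the kept cells. Clusters were named from marker genes, with the 10 Notch genes and 50 other pathway genes left out of the clustering, and the names carry the suffix "-like" because they rest on markers alone. The vessel classes were capillary EC-like (1638 cells in DMSO and 1568 in MVC), arterial EC-like (293 and 271), venous EC-like (274 and 234) and lymphatic EC-like (75 and 79) endothelial cells (EC). The mural classes were pericyte-like (296 and 287), smooth muscle cell-like (SMC-like, 65 and 48) and a class that met both marker lists, pericyte/SMC-like (101 and 77). Muscle stem cell-like cells (MuSC-like) numbered 143 and 256, fibro-adipogenic progenitor-like cells (FAP-like) 1228 and 1443, and tenocyte-like cells 444 and 504. All 10 MuSC markers were raised in the MuSC-like cluster, all 8 pericyte markers in the pericyte-like cluster and all 7 lymphatic markers in the lymphatic EC-like cluster. Other names rested on a part of their lists. In the FAP-like clusters 5 to 9 of the 10 FAP markers were raised, and in the SMC-like cluster 7 SMC markers. The pericyte/SMC-like cluster was led by Ccl11, Ccl19 and Olfr1033, which are in neither of its lists. Of its cells, 35.6% in DMSO and 51.9% in MVC also had UMIs of at least 3 FAP markers. The sub-clusters named capillary EC-like had 5 and 7 capillary markers raised.

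A level below is the number of UMIs of a gene per 1000000 UMIs of its class in one library (counts per 1000000, CPM), with the exact Poisson 95% interval in parentheses, and a ratio is the MVC level over the DMSO level with the exact conditional 95% interval. These intervals cover counting error only and not the variation between cells or mice. Levels were compared between classes and libraries within a gene, never between genes. Classes are said to overlap where the ranges spanned by their DMSO and MVC levels overlap. A lower level in a class can come from fewer cells that express the gene or from less RNA per cell. Shares of cells with a UMI were taken after each cell had been thinned to 2000 UMIs, because depth differed between classes.

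Of the 100 pairs of a Notch gene and a class, 58 had at least 50 UMIs over both libraries and 42 did not. Among the 58, 5 were at least 1.5-fold higher in the MVC library, where 10.6% of all gene and class pairs were, and 3 were at least 1.5-fold lower, against 6.22% of all pairs. The remaining 50 stayed within 1.5-fold, and the shares of Notch pairs past it were near the background in both directions. The median log2 ratio of the 58 pairs was 0.00. With median-ratio scaling the split of 5 higher and 3 lower became 5 and 7, and the share of all genes under that scaling is not given here. The genes higher in MVC were Notch3 and Heyl in MuSC-like cells, Heyl in FAP-like cells, Dll1 in venous EC-like cells and Hey1 in lymphatic EC-like cells. The lower ones were Notch2 and Heyl in SMC-like cells and Jag1 in lymphatic EC-like cells.

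**Figure D1:**
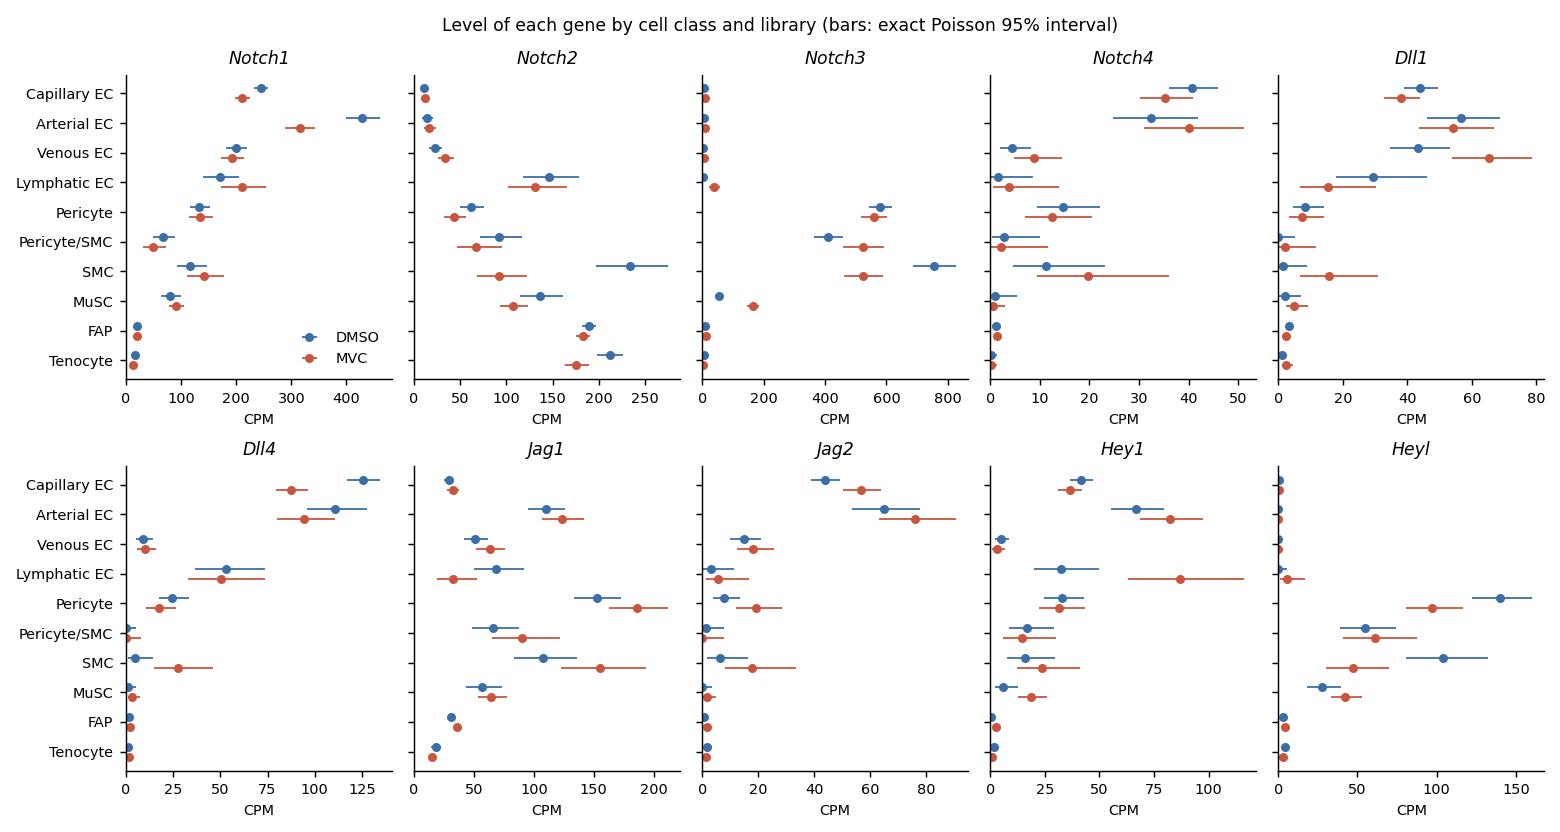
Level of each of the 10 genes (x axis, CPM, own scale for each gene) in 10 cell classes (y axis) in the DMSO (blue) and MVC (red) libraries, with exact Poisson 95% intervals. Notch3 and Heyl stand highest in the mural rows, Dll4, Notch4 and Jag2 in the capillary and arterial rows, and Notch2 is near its lowest in those same rows.

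Among receptors, Notch1 (chromosome 2, 26457903 to 26516663, minus strand, coordinates in GRCm38) was highest in blood vessel endothelium. In arterial EC-like cells its level was 429 (399 to 460) in DMSO and 315 (289 to 344) in MVC, the highest of the 10 classes in both libraries. Capillary EC-like cells followed with 244 and 211, venous EC-like cells with 200 and 192, and lymphatic EC-like cells with 171 and 210. The arterial values did not overlap the capillary ones, whereas the venous and lymphatic values overlapped each other. Pericyte-like cells held 133 and 135, and SMC-like cells 117 and 141, a pair that overlapped. MuSC-like cells had 80.6 and 90.6, above the pericyte/SMC-like cells at 67.0 and 48.3, the lowest of the vessel wall classes. FAP-like cells lay at 19.3 and 19.0 and tenocyte-like cells at 15.6 and 11.7, so that the stroma was below all of these. Outside these classes, Schwann-like cells had 175.5 and 128.7, in the range of the venous and lymphatic EC-like cells in DMSO.

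The arterial level of Notch1 was lower in MVC by less than 1.5-fold, at a ratio of 0.735 (0.656 to 0.823). After thinning, 148 of 282 arterial EC-like cells (52.5%) had a Notch1 UMI in DMSO and 108 of 252 (42.9%) in MVC, a difference of -9.63 percentage points (-17.9 to -1.14). The interval of this difference included 0 at the other depths, with -3.46 points (-11.0 to 4.18) after thinning to 1000 UMIs and -6.46 (-13.5 to 0.556) without thinning. The unthinned shares were 79.5% and 73.1%, at median depths of 5971 and 5321 UMIs. The class with the lowest thinned share was the tenocyte-like one, with 3.02% in DMSO and 0.871% in MVC at median depths of 8029 and 7243.5. In capillary EC-like cells the ratio was 0.864 (0.798 to 0.936) and in venous EC-like cells 0.964 (0.831 to 1.12). A non-coding gene, 0610009E02Rik, lies on the opposite strand over Notch1 and received 809 UMIs beside the 7129 of Notch1. Whether the counting used strand is not given in the sources used here, so how reads from the overlap were assigned to these genes is not known.

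Notch2 (chromosome 3, 98013527 to 98150361, plus strand) was present in stroma and SMC-like cells. Tenocyte-like cells held 212 (198 to 227) in DMSO and 176 (163 to 189) in MVC, and FAP-like cells 189 (182 to 197) and 183 (176 to 190), without a gap between these classes. SMC-like cells were above both in DMSO at 234 and below both in MVC at 92.3. Capillary EC-like cells had 10.7 and 12.2 and arterial EC-like cells 14.0 and 16.04, the lowest of the 10 classes, while lymphatic EC-like cells stood apart from the other endothelium at 146 and 131. MuSC-like cells had 137 and 107, a ratio of 0.783 (0.627 to 0.980). Their thinned shares with a Notch2 UMI were 23.9% and 14.6%, a difference of -9.28 percentage points (-18.0 to -1.22). The interval included 0 after thinning to 1000 UMIs, at -1.54 (-8.34 to 4.26), and without thinning, at -7.94 (-17.9 to 2.18). Outside these classes, neutrophil-like cells reached 838 and 711, macrophage-like cells 405 and 371, and perineurial-like cells 251 and 228.5.

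In SMC-like cells Notch2 differed most between the libraries. The DMSO library had 146 UMIs in 65 cells and a level of 234 (197 to 275), and the MVC library 47 UMIs in 48 cells and a level of 92.3 (67.8 to 123). The ratio was 0.395 (0.278 to 0.552), and in this class 10.1% of all genes were at least 1.5-fold lower in MVC. Cells with 4 or more Notch2 UMIs made up 23.1% of the class in DMSO and 2.08% in MVC. After thinning, 35.4% (23.9 to 48.2) of SMC-like cells in DMSO and 19.1% (9.15 to 33.3) in MVC had a Notch2 UMI, and these intervals overlapped. Capillary EC-like cells, the class with the lowest share, had 1.65% and 2.02%.

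The SMC-like cells of the MVC library also held more endothelial RNA. The 10 EC markers summed to 741 CPM in DMSO and 2263 in MVC, and all 10 were higher in MVC, with none at 0. The ratio was taken again in the 50 DMSO and 25 MVC cells with UMIs of fewer than 3 EC markers, a choice made after the values were seen. In those cells Notch2 was 278 in DMSO and 131 in MVC, at a ratio of 0.473 (0.298 to 0.724).

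Notch3 (chromosome 17, 32120820 to 32166852, minus strand) was the mural receptor, known to keep arterial smooth muscle mature. Its level in SMC-like cells was 754 (688 to 825) in DMSO and 523 (462 to 589) in MVC. Pericyte-like cells held 580 (542 to 619) and 558 (517 to 602), which overlapped the SMC-like values. Pericyte/SMC-like cells had 409 in DMSO and 523 in MVC, below the pericyte-like level in both. The MVC to DMSO ratios were 0.693 (0.594 to 0.807) for SMC-like, 0.963 (0.870 to 1.07) for pericyte-like and 1.28 (1.07 to 1.52) for pericyte/SMC-like cells, all within 1.5-fold. In pericyte/SMC-like cells the 10 FAP markers summed to 1096 CPM in DMSO and 3137 in MVC, and their part in the ratio was not tested. FAP-like, tenocyte-like, capillary EC-like, arterial EC-like and venous EC-like cells ranged from 3.84 to 11.0. In lymphatic EC-like cells 20 UMIs in MVC came from 2 cells, and without cells scored as doublets 2 UMIs remained there.

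After thinning, 186 of 269 pericyte-like cells (69.1%) in DMSO and 111 of 188 (59.0%) in MVC had a Notch3 UMI, a difference of -10.1 percentage points (-18.9 to -1.21). Thinning left out 27 shallower pericyte-like cells in DMSO and 99 in MVC. After thinning to 1000 UMIs the difference was -4.53 points (-12.7 to 3.78), which includes 0, and without thinning it was -11.96 (-18.5 to -5.39). In B cell-like cells, which should lack the gene, the thinned share was 0 of 202 in DMSO, which allows up to 1.81% by the exact binomial interval, and 2 of 92 (2.17%) in MVC, at median depths of 5071 and 5375 UMIs. The mural share was far above the B cell-like one.

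The largest ratio of the 58 pairs was that of Notch3 in MuSC-like cells. The DMSO library held 55 Notch3 UMIs in 143 cells, a level of 54.1 (40.7 to 70.4), and the MVC library 303 UMIs in 256 cells, a level of 165 (147 to 185). The ratio was 3.06 (2.29 to 4.15), in a class where 11.1% of all genes were at least 1.5-fold higher in MVC. No DMSO cell had 4 or more Notch3 UMIs, against 10.2% of the MVC cells, and the highest counts in a cell were 3 and 12. The 3 leading cells gave 12.7% of the Notch3 UMIs in DMSO and 10.2% in MVC, so that the leading cells carried a small part of the level in both. After thinning, 11.6% (6.77 to 18.1) of DMSO cells and 22.4% (17.3 to 28.1) of MVC cells had a Notch3 UMI, a difference of 10.8 percentage points (2.78 to 17.8). Without thinning the shares were 32.9% and 54.7%, at median depths of 6751 and 6422 UMIs. Even so, the MuSC-like level in MVC stayed below each of the 3 mural classes.

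Markers of other cells were also higher in the MuSC-like cells of MVC. The 16 mural markers summed to 139 CPM in the MuSC-like cells of DMSO and 421 in those of MVC, with 13 of 16 higher in MVC. Lmod1, Actg2, Higd1b and Ndufa4l2 were at 0 in DMSO, and Cnn1 and Actg2 in MVC. The 10 FAP markers summed to 479 and 2013, with 9 of 10 higher in MVC, and Pdgfra, Lum and Smoc2 were at 0 in DMSO. The 10 MuSC markers summed to 3641 and 3875, with 5 of 10 higher in MVC. For each 100 UMIs of mural markers there were 39.0 Notch3 UMIs in the MuSC-like cells of DMSO and 39.2 in those of MVC, against 3.37 to 4.67 in the mural classes. In the 76 DMSO and 69 MVC cells without any mural marker UMI, an alternative chosen after the values were seen, Notch3 was 54.7 and 182, a ratio of 3.32 (2.11 to 5.36). Without cells scored as doublets the ratio was 3.26 (2.42 to 4.47).

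Within the MVC library the 140 MuSC-like cells with a Notch3 UMI had a summed mural level of 391, and the 116 without one 471. In DMSO the order was the other way, with 181 in the 47 cells with a Notch3 UMI and 115 in the 96 without. The cells with a Notch3 UMI had 232 CPM of Calcr, the calcitonin receptor of quiescent satellite cells, and those without it 82.8. In DMSO the corresponding Calcr levels were 104 in 47 cells and 65.9 in 96 cells. Myod1, the factor of activated myoblasts, was 225 in cells with a Notch3 UMI and 511 in those without it in MVC, and 508 and 366 in DMSO, the opposite order. Cells with more UMIs are more likely to show a Notch3 UMI, and their median depth was 7174.5 against 5863.5 in MVC. Over the whole class Calcr was 79.6 in DMSO and 175 in MVC, a ratio of 2.19 (1.71 to 2.83), and Pax7, the defining factor of satellite cells, 196 and 286. Myod1 was 417 and 335, a ratio of 0.803 (0.708 to 0.911), and Myf5 87.5 and 110, a ratio of 1.26 (0.977 to 1.64). All 4 genes belong to the list of 10 MuSC markers, of which 5 were higher in MVC.

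**Figure D2:**
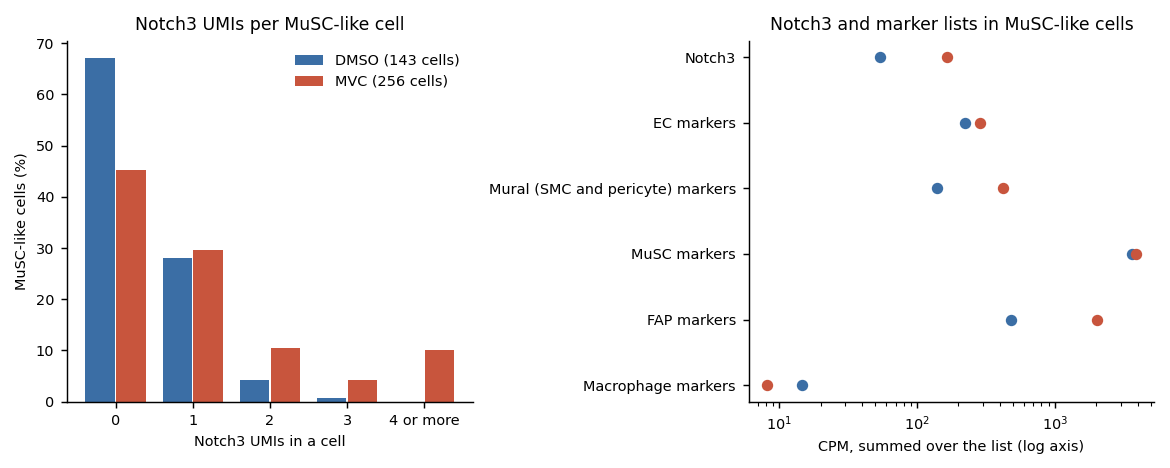
Left, share of MuSC-like cells (y axis, percent) by the number of Notch3 UMIs in the cell (x axis) in the DMSO (blue) and MVC (red) libraries. Right, level of Notch3 and summed levels of marker lists of each cell type in MuSC-like cells (x axis, CPM, log axis): Notch3, the mural and the FAP markers are all higher in MVC, while the MuSC markers are 3641 and 3875.

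The antisense gene Gm17276 overlaps Notch3 and received 765 UMIs against 3705 of Notch3. In MuSC-like cells its level was 49.2 in DMSO and 44.2 in MVC, so it did not share the difference seen for Notch3.

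RefSeq promoter windows of GRCm38.p6, from 250 bases before to 50 bases after a gene's start, were found for 8 of the 10 genes, as 9 windows. The letters TGGGAA, the core of the Rbpj motif, were searched on both strands together with the longer GTGGGAA, which contains them. TGGGAA occurred in 25.6% of all 32851 windows and GTGGGAA in 6.38%, and none of the 9 windows held either. The window of Notch3, at chr17:32166841-32167140 on the minus strand, is shown because the largest difference concerned this gene, and that of the target gene Hey2, at chr10:30842734-30843033 on the minus strand, because it held 2 matches, in capitals. Among the other target genes read, the window of Hes5 also held 2 matches and that of Nrarp none.
Notch3: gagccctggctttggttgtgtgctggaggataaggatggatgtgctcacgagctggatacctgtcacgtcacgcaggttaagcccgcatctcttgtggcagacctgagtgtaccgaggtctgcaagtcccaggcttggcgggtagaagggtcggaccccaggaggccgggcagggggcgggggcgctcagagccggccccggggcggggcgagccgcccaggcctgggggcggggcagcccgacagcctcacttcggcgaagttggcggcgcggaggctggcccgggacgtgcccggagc
Hey2: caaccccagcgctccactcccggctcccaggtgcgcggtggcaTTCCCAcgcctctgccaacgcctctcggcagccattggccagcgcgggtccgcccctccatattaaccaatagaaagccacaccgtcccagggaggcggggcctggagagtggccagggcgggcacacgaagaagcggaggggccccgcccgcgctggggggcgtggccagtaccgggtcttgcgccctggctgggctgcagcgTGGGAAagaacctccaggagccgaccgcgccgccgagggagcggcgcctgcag
Hey2, the sister of Hey1 and Heyl, belonged to the pathway list and had 31 UMIs in the SMC-like cells of each library, at levels of 49.6 and 60.9. A match of letters is a description and not a binding site, and no sequence outside these promoter windows was read.

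Notch4 (chromosome 17, 34564268 to 34588503, plus strand), a receptor largely limited to endothelium, had 40.7 (36.0 to 46.0) and 35.3 (30.2 to 41.0) in capillary EC-like cells. Arterial EC-like cells had 32.5 and 40.1, which overlapped the capillary values. Venous EC-like cells held 4.32 and 8.74 and lymphatic EC-like cells 1.55 and 3.85, so the gene separated capillary and arterial from the other endothelium. Pericyte-like cells, at 14.8 and 12.5, and SMC-like cells, at 11.2 and 19.6, lay above the venous EC-like ones, and MuSC-like, FAP-like and tenocyte-like cells had at most 1.46. The ratio was 0.865 (0.709 to 1.05) in capillary EC-like and 1.23 (0.853 to 1.79) in arterial EC-like cells. After thinning, 8.87% and 6.72% of capillary EC-like cells had a Notch4 UMI, against 0 of 202 and 0 of 92 B cell-like cells.

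Of the ligands, Dll4 (chromosome 2, 119325784 to 119335962, plus strand) shared the capillary and arterial pattern of Notch4. Its level was 125 (117 to 134) in DMSO and 87.5 (79.4 to 96.3) in MVC in capillary EC-like cells, and 111 (96.0 to 127) and 94.4 (80.0 to 111) in arterial EC-like cells. Lymphatic EC-like cells followed with 52.8 and 50.1, and venous EC-like cells had 9.12 and 9.91, below pericyte-like cells at 24.4 and 17.4. Without cells scored as doublets the pericyte-like level was 11.8 and 11.0, and 24.7% and 27.2% of pericyte-like cells carried at least 3 EC markers. SMC-like cells had 3 UMIs in DMSO and 14 in MVC, beside the higher EC markers given above, and pericyte/SMC-like cells had none. An antisense gene over Dll4, Gm14207, received 236 UMIs against 1869 of Dll4.

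The capillary ratio of Dll4 was 0.698 (0.619 to 0.787), a log2 ratio of -0.52, just short of the 1.5-fold limit. The thinned share of capillary EC-like cells with a Dll4 UMI was 19.4% in DMSO and 15.5% in MVC, a difference of -3.94 percentage points (-6.90 to -0.912). Without thinning it was 30.6% and 20.03%, at median depths of 3441 and 2849.5 UMIs, and thinning left out 184 and 526 shallower cells. The share in B cell-like cells was 1 of 202 and 1 of 92. Over all kept cells Dll4 had the lowest ratio of the 10 genes, 0.671 (0.611 to 0.738), a value taken over all cell types together.

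Capillary EC-like cells consisted of a pair of sub-clusters in unequal shares. The first had 1118 cells in DMSO and 798 in MVC and was led by 4430402I18Rik, Slc1a1 and Wdr95, and the second had 520 and 770 cells and was led by Ccdc85a, Car4 and Slc28a2. Dll4 was 101 in DMSO and 70.0 in MVC in the first, a ratio of 0.693 (0.579 to 0.828), and 181 and 106 in the second, a ratio of 0.588 (0.498 to 0.694). Dll4 was thus lower in MVC in each sub-cluster taken alone. In the second, Hey1 was 73.0 and 40.7, a ratio of 0.557 (0.425 to 0.727), and in the first 27.6 and 32.2, a ratio of 1.17 (0.869 to 1.56). Jag2 went the other way in the second, with 50.7 and 76.7 and a ratio of 1.51 (1.18 to 1.95), against 40.8 and 38.2 in the first. The sub-clusters differed in these directions for Hey1 and Jag2, but no test of the difference is possible with 1 library a group.

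**Figure D3:**
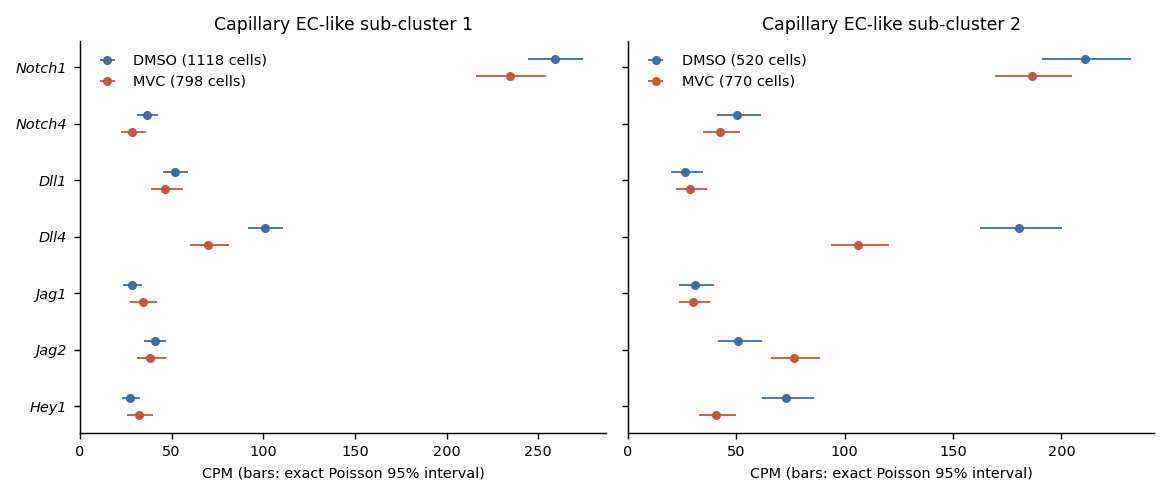
Levels (x axis, CPM) of 7 Notch genes (y axis) in the sub-clusters of capillary EC-like cells in the DMSO (blue) and MVC (red) libraries, with exact Poisson 95% intervals. Dll4 is lower in MVC in both panels, while Hey1 is lower and Jag2 higher in MVC in the second panel.

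Dll1 (chromosome 17, 15367354 to 15376872, minus strand) was found across blood vessel endothelium. Arterial EC-like cells held 56.6 and 54.3, venous EC-like cells 43.2 and 65.3, and capillary EC-like cells 44.0 and 37.96, and neighbours in this order overlapped. In venous EC-like cells the 90 UMIs in DMSO, at 43.2 (34.7 to 53.1), and the 112 in MVC, at 65.3 (53.8 to 78.5), gave a ratio of 1.51 (1.14 to 2.02), while 9% of all genes were at least 1.5-fold higher there. After thinning, 13 of 229 cells (5.68%) in DMSO and 26 of 196 (13.3%) in MVC had a Dll1 UMI, and without thinning 17.9% and 28.6%, at median depths of 7802.5 and 7100.5. The B cell-like shares were 1.49% and 0%. Without cells scored as doublets the venous ratio was 2.08 (1.504 to 2.90). The 10 FAP markers summed to 475 and 1170 in these cells and the 10 EC markers to 6603 and 6715, and their part in the Dll1 difference was not tested.

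Jag1 (chromosome 2, 137081456 to 137116644, minus strand), the ligand of the vessel wall, led in pericyte-like cells with 152 (134 to 173) and 186 (163 to 212). SMC-like cells had 107 and 155, overlapping the pericyte-like values, and arterial EC-like cells 110 and 123. It was present in every class, with 57.0 and 64.4 in MuSC-like cells, 50.9 and 62.9 in venous EC-like cells, 30.8 and 36.0 in FAP-like cells, and 29.1 and 32.2 in capillary EC-like cells. Tenocyte-like cells were lowest at 17.9 and 14.9. Its MVC to DMSO ratio reached 1.22 (1.01 to 1.47) in the pericyte-like class, 1.45 (1.03 to 2.03) in SMC-like cells and 1.17 (1.02 to 1.34) in FAP-like cells. The part of the higher EC markers of SMC-like cells in MVC, given above, in the SMC-like ratio was not tested.

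In lymphatic EC-like cells Jag1 was 68.3 (49.6 to 91.7) in DMSO and 32.8 (19.1 to 52.4) in MVC, a ratio of 0.479 (0.257 to 0.856), beside 11.6% of all genes at least 1.5-fold lower. The value rested on 44 and 17 UMIs, of which the 3 leading cells held 61.4% and 47.1%, and 1 DMSO cell alone had 16. The thinned shares of 9.33% (3.84 to 18.3) and 7.79% (2.91 to 16.2) did not differ beyond counting error. Without the 3 leading cells of each library the log2 ratio was -0.54.

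Jag1 also varied inside the stroma, in values singled out after they were seen. In the FAP-like cluster led by Pi16, Nova1 and Cd248, the 75 DMSO cells had 52.3 and the 104 MVC cells 108, a ratio of 2.08 (1.45 to 3.02). In the tenocyte-like cluster led by Angptl7, Fmod and Comp, the 189 DMSO cells had 22.3 and the 217 MVC cells 8.78, a ratio of 0.395 (0.205 to 0.727). The largest FAP-like cluster, led by Cxcl14, Smoc2 and Grm8, had 24.99 and 27.9.

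Jag2 (chromosome 12, 112907819 to 112929776, minus strand) was high in arterial EC-like cells, at 65.0 (53.7 to 77.9) and 75.9 (63.1 to 90.5). Capillary EC-like cells came next with 43.9 (38.9 to 49.3) and 56.8 (50.3 to 64.0), a library range below the arterial one, and venous EC-like cells had 14.9 and 18.1. Stromal and MuSC-like cells had at most 1.76. The ratio was 1.30 (1.09 to 1.54) in capillary EC-like cells and 1.17 (0.899 to 1.52) in arterial EC-like cells.

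**Figure D4:**
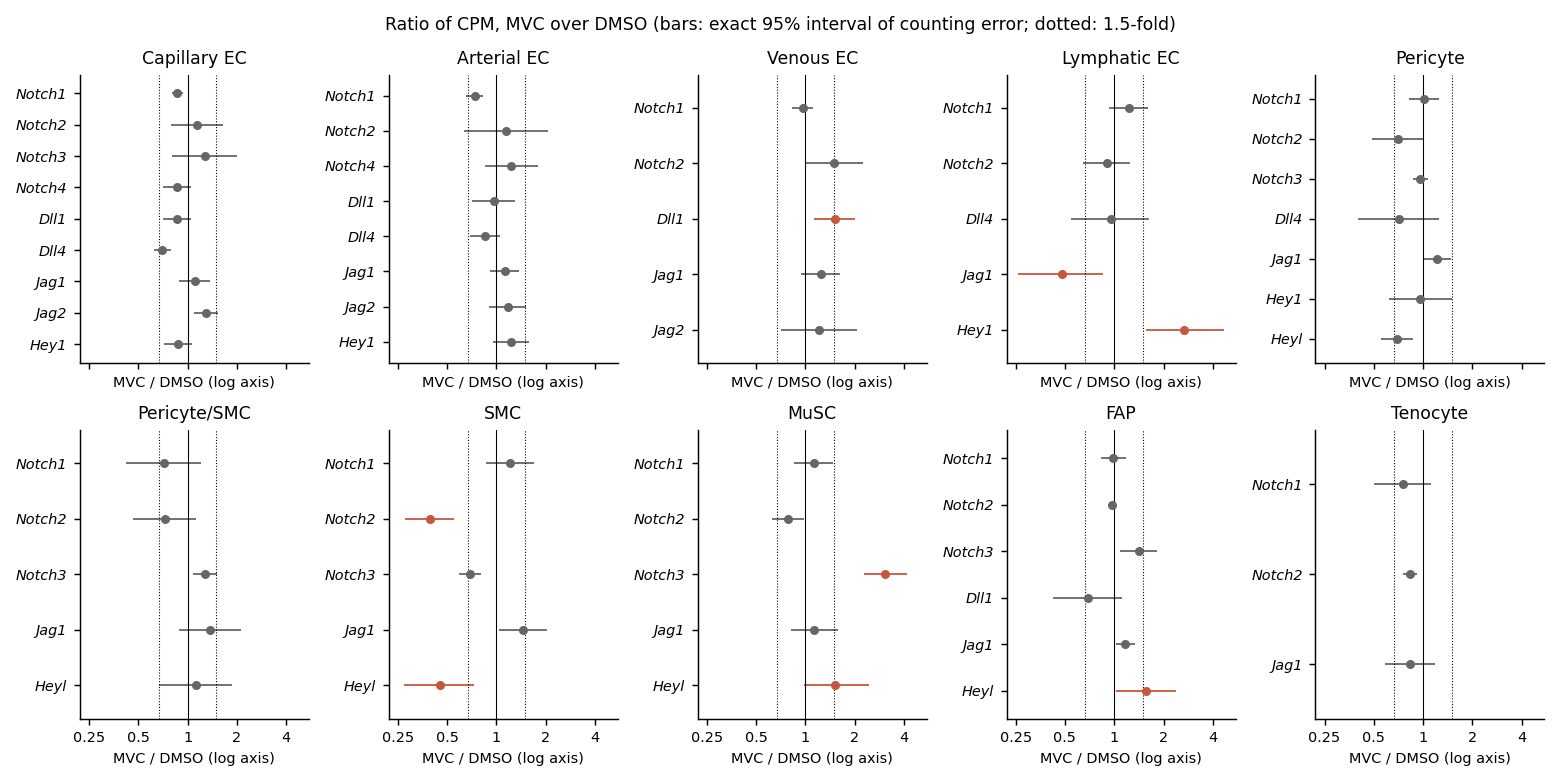
Ratio of the MVC to the DMSO level (x axis, log axis) of each Notch gene with at least 50 UMIs in a class (y axis), 1 panel per class, with exact 95% intervals of counting error. Dotted lines mark 1.5-fold and red points lie past it: 5 higher in MVC, of which Notch3 in MuSC is the farthest, and 3 lower.

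Among the targets, Hey1 (chromosome 3, 8663359 to 8667256, minus strand), a repressor that acts downstream of Notch in arterial endothelium, had 66.6 (55.2 to 79.7) and 82.1 (68.7 to 97.2) in arterial EC-like cells, the highest class in DMSO and on the mean of both libraries, whereas lymphatic EC-like cells were higher in MVC at 86.7. Capillary EC-like cells had 41.5 and 36.3 and pericyte-like cells 32.8 and 31.6. Venous EC-like cells had only 4.80 and 2.91, and 2.19% and 1.71% of these cells had a Hey1 UMI without thinning, of which none was left after thinning. The lymphatic EC-like values overlapped the arterial ones and are given next. The arterial ratio was 1.23 (0.954 to 1.59) and the capillary ratio 0.874 (0.718 to 1.06).

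In lymphatic EC-like cells Hey1 was 32.6 (20.2 to 49.8) in DMSO and 86.7 (63.2 to 116) in MVC. The ratio of 2.66 (1.55 to 4.70) stood beside 9.43% of all genes at least 1.5-fold higher in this class. It rested on 21 UMIs in 75 cells and 45 in 79, of which the 3 leading cells held 42.9% and 44.4%. Without thinning, 20% and 20.3% of the cells had a Hey1 UMI, at median depths of 7418 UMIs in DMSO and 5104 in MVC. With thinning, the shares were 6.67% (2.20 to 14.9) and 11.7% (5.49 to 21.0). After thinning to 1000 UMIs they were 4% and 10.3%, a difference of 6.26 percentage points (-2.42 to 15.3), which includes 0. Whether the level difference came from more positive cells or from more UMIs per positive cell was not tested. The 10 FAP markers summed to 332 and 1121 in these cells and the 10 MuSC markers to 0 and 116, and their part in the result was not tested. Below the 50 UMI minimum, Hey1 had 6 UMIs in DMSO and 34 in MVC in MuSC-like cells, at levels of 5.90 and 18.6, and 7 and 37 in FAP-like cells, at 0.529 and 2.70.

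Heyl (chromosome 4, 123233556 to 123249875, plus strand), a Hey family member of mural and satellite cells, lay in the same classes as Notch3. Pericyte-like cells had 140 (122 to 160) in DMSO and 97.2 (80.4 to 116) in MVC, SMC-like cells 104 and 47.1, pericyte/SMC-like cells 54.5 and 60.9, and MuSC-like cells 27.5 and 42.0. FAP-like cells had 2.87 and 4.46, and arterial and venous EC-like cells had no UMI in either library. Capillary EC-like cells had 4 and 3 UMIs in 1638 and 1568 cells. No B cell-like cell had a Heyl UMI.

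The direction of Heyl differed between classes. In SMC-like cells 65 UMIs in DMSO, at 104 (80.3 to 133), and 24 in MVC, at 47.1 (30.2 to 70.2), gave a ratio of 0.453 (0.271 to 0.734). The thinned shares there, 12.3% (5.47 to 22.8) and 10.6% (3.55 to 23.1), did not differ beyond counting error, and the log2 ratio of -1.14 became -0.38 after thinning, within 1.5-fold. In the SMC-like cells with fewer than 3 EC markers the ratio was 0.409 (0.177 to 0.838). The pericyte-like ratio was 0.694 (0.549 to 0.873), and 0.611 (0.473 to 0.786) without cells scored as doublets. In MuSC-like cells 28 UMIs in DMSO and 77 in MVC gave 1.53 (0.979 to 2.44), an interval that includes 1, and in the cells without a mural marker UMI 1.20 (0.526 to 2.71). In FAP-like cells the ratio was 1.55 (1.02 to 2.39), beside 11.4% of all genes at least 1.5-fold higher, at levels of 2.87 and 4.46. It fell within 1.5-fold in 4 of 8 alternatives, and its log2 value was 0.64 as given, 0.51 with median-ratio scaling and 0.20 with the mean of each cell's level. Within the FAP-like clusters the ratio was 1.48 (0.897 to 2.52) in the one led by Cxcl14, which had 493 cells in DMSO and 737 in MVC, and 1.24 (0.472 to 3.22) in the one led by Ifi205. The Pi16-led cluster had 3 UMIs in DMSO and 0 in MVC. The 16 mural markers summed to 345 in the FAP-like cells of DMSO and 444 in those of MVC, with 13 of 16 higher and none at 0, and their part in the result was not tested.

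Within cells, the genes were read in pairs after thinning. In capillary EC-like cells of DMSO, 47 of 282 cells with a Dll4 UMI (16.7%) also had a Hey1 UMI, against 5.29% of the cells without one. In MVC the corresponding shares were 14 of 161 (8.70%) and 5.22%. In DMSO both genes were higher in the second capillary sub-cluster than in the first. Dll4 was 181 against 101 and Hey1 73.0 against 27.6, and the part of the sub-clusters in these shares was not tested. In arterial EC-like cells the shares were 20.4% and 9.01% in DMSO and 15.4% and 14.1% in MVC. In pericyte-like cells 26.3% of the cells with a Notch3 UMI had a Heyl UMI in DMSO, against 22.9% of the rest, and 24.3% against 13.0% in MVC. In MuSC-like cells the shares were 6.25% against 6.56% in DMSO and 12.7% against 8.38% in MVC, from 1 and 7 cells with both. For Jag1 with Hey1 the shares were 4.62% against 6.86% in DMSO and 1.72% against 7.69% in MVC in pericyte-like cells. They were 9.09% against 7.42% and 3.45% against 5.89% in capillary EC-like cells. In arterial EC-like cells they were 17.7% against 9.09% and 17.1% against 13.7%. For Notch4 with Dll4 they were 25.6% against 18.8% and 24.3% against 14.8% in capillary EC-like cells. The arterial shares were 6.67% against 18.0% and 25% against 14.7%. No test of these differences between libraries is possible.

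Across the 16 classes of both libraries, 32 profiles of log2 levels, the genes most like each Notch gene by Pearson's r were found among 16805 genes, as a description, since profiles share libraries and depth. Notch3 was most like Rgs4 (r = 0.968), Heyl (r = 0.956) and Mark1 (r = 0.951), and Heyl was most like Pde3a, Rgs4 and Notch3. Notch4 was most like Jag2 (r = 0.927), Sox17, a transcription factor of arterial endothelium (r = 0.918), and Depp1 (r = 0.912). Dll4 was most like Btnl9 (r = 0.960) and the tight junction gene Cldn5 (r = 0.953), and Hey1 was also most like Btnl9 (r = 0.861). Dll1 was most like Tead4 (r = 0.963), Adcy4 (r = 0.959) and the endothelial nitric oxide synthase Nos3 (r = 0.957). Jag2 was most like Mecomos (r = 0.944) and Sox17 (r = 0.942). For Notch2 the closest gene was Antxr2 (r = 0.840), for Jag1 Maoa (r = 0.807), and for Notch1 Dysf (r = 0.843), with its own antisense gene 0610009E02Rik in the next ranks (r = 0.832).

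The other 50 genes of the pathway list supply ligand handling, receptor cleavage, the nuclear complex and inhibitors, and most stayed within 1.5-fold. In MuSC-like cells 24 had at least 50 UMIs, of which 3 were past the fold upward and 2 downward, against 11.1% and 8.48% of all genes. Upward in MVC were Hes1, a Notch target repressor, at 59.0 and 101 with a ratio of 1.71 (1.27 to 2.33), Dtx4 at 33.4 and 64.4, and Dtx3 at 13.8 and 24.6, both Deltex genes. Downward were the corepressor Tle1 at 54.1 and 27.8 and Adam10, the protease that cuts Notch at the surface, at 76.7 and 50.2. Rbpj was 470 and 363, within the fold at 0.772 (0.686 to 0.871).

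In SMC-like cells 19 list genes had at least 50 UMIs, of which 3 were higher and 1 lower past the fold, against 15.6% and 10.1% of all genes. The Notch inhibitor Numb was 49.6 and 161, a ratio of 3.25 (2.12 to 5.08), the convertase Furin 30.4 and 72.7, and Fbxw7, which marks the Notch intracellular domain for degradation, 40.0 and 70.7. Nrarp, a feedback inhibitor induced by Notch, was 272 and 171, a ratio of 0.628 (0.479 to 0.818). In these SMC-like cells the 10 EC markers summed to 741 CPM in DMSO and 2263 in MVC. The part of this endothelial RNA in the ratios of the list genes was not tested. In pericyte-like cells 3 of 27 were lower, namely Numbl at 27.0 and 10.8, Dtx3 at 281 and 164, and Cir1 at 50.1 and 32.4, where 5.86% of all genes were lower and 9.86% higher. In pericyte/SMC-like cells Fbxw7, Furin and Numb were among the higher ones and 2 of 22 were lower, where 11.3% of all genes were higher and 8.33% lower, and Numbl at 65.6 and 29.4 and Dtx3 at 99.2 and 58.8 were again the lower ones.

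In capillary EC-like cells 2 of 34 list genes were higher past the fold and none lower, against 12.3% and 3.69% of all genes. These were Lfng, a fringe enzyme that modifies Notch receptors, at 4.51 and 9.54 with a ratio of 2.12 (1.30 to 3.49), and the gamma-secretase subunit Aph1b at 7.93 and 12.2. Hes1 was 659 and 475 in these cells, a ratio of 0.720 (0.684 to 0.758), and 706 and 543 in pericyte-like cells, a ratio of 0.769 (0.697 to 0.848), both within the fold, beside 1.71 in MuSC-like cells, and these differences were not tested. In arterial EC-like cells Cir1 at 23.0 and 37.6 was higher and the fringe gene Mfng at 25.2 and 15.4 lower, of 26 genes, against 8.13% and 3.99%. In venous EC-like cells the coactivator Maml3 at 110 and 182 was higher, of 26, where 9% of all genes were higher and 10.1% lower. In lymphatic EC-like cells 1 of 20, Psen2 at 115 and 63.6, was lower, against 11.6%.

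In FAP-like cells 5 of 39 list genes were higher and none lower, against 11.4% and 3.56% of all genes. The non-canonical ligand Dlk1 was 6.95 and 14.98, a ratio of 2.16 (1.68 to 2.79), and Dner, another such ligand, 1.06 and 2.70. Pofut1, which adds fucose to Notch receptors, was 13.1 and 20.8, the fringe gene Rfng 3.55 and 5.92, and Hes6 1.96 and 3.36. In tenocyte-like cells Dtx3l at 10.1 and 16.6 and Pofut1 at 9.83 and 15.4 were higher, 2 of 30, and none lower, against 9.21% and 5.4% of all genes. These levels were low, and in FAP-like cells the median log2 ratio of all genes was 0.13, the largest shift of the 10 classes.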

How the data were processed

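The authors sequenced 1 droplet-based library per group and, per the submitters' processing notes, used Cell Ranger (version 7.0.0), Seurat (version 5.0.1) and the mm10 build. The deposited values are UMI counts per gene and cell, not normalized, with 5812 barcodes and 39150511 UMIs in DMSO and 6047 and 36063575 in MVC. Whether introns or strand entered the counting is not given in the sources used here. Scanpy (version 1.11.5) and leidenalg (version 0.10.2) were used from the counts onward. The filter stated by the study (at least 500 genes, at most 10% mitochondrial UMIs) left 5437 and 5454 cells, which are also the cell numbers given in its text.

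Cells were clustered together (2000 variable genes, 30 components, 20 neighbours, Leiden resolution 1, endothelial clusters again at 0.3 times it). A cluster was named when at least 3 of its markers had a log2 difference of at least 1 and a UMI in 20% or more of its cells, and both names were given where the next list came within 1 on the log2 scale. A cluster of 88 and 43 cells with few UMIs and EC markers stayed unnamed. The cell names were rebuilt here and can differ from the study's. Cells were scored for doublets against simulated pairs, and the highest-scored ones were called doublets and kept except in an alternative. Their number, 236 cells in DMSO and 238 in MVC, was fixed by an assumed rate of 0.8% per 1000 cells and not by the scores. UMIs were summed per class and library and given per 1000000 UMIs (CPM). With 1 library a group no test was run. A fixed rule of size, 1.5-fold with at least 50 UMIs, selected pairs, and the same rule over all genes gave the background. Shares have exact Clopper-Pearson intervals, their differences Newcombe intervals, and all intervals cover counting error only. By name, the text gives all 10 Notch genes, the pathway genes past 1.5-fold (at most 6 a class by log2 ratio with 10 CPM added) and the 3 genes most like each Notch gene, plus Rbpj, Hes1, Hey2 and the MuSC genes, added after their values were seen. The genes and lists were chosen with earlier results of these data known. The ratio and interval steps were tested on simulated data. The alternatives were doublet removal, a stricter cell filter, other scalings, another resolution, thinning, other minimums and leaving out leading cells. Coordinates are from GENCODE M21. Some pathway list genes past 1.5-fold are not reported here.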

Additional observations from a re-analysis of the deposited data

Results flagged for a closer look

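Heyl had opposite directions in 2 classes under the same contrast. Its MVC to DMSO ratio was 1.55 in FAP-like cells and 0.453 in SMC-like cells. The difference between the classes was not tested, since there is 1 library a group. Neither value held its side of 1.5-fold throughout. The FAP-like log2 ratio of 0.64 became 0.51 with median-ratio scaling, and no FAP-like cluster reached 1.5-fold upward, with 1.48 (0.897 to 2.52) in the largest one. The SMC-like log2 ratio of -1.14, from 65 and 24 UMIs, became -0.38 after thinning.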

How the results depend on the processing

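With 1 library a group, counting error is the only error known, and 42 of 100 pairs had too few UMIs to be read. No paired analysis was possible because each group has 1 library. The count of pairs higher in MVC past 1.5-fold was 5, and became 10 with the mean of each cell's level, 2 after thinning to 2000 UMIs, 14 with a minimum of 20 UMIs and 23 with no minimum. The count of lower pairs was 3, and became 5 without doublets, 5 with the mean of each cell's level, 7 with median-ratio scaling and 7 with no minimum. The shares of all pairs, 10.6% higher and 6.22% lower, belong to the main setting only. Counts under the alternatives therefore have no background to be read against, and the number of pairs read changes with the minimum. Of the 100 differences in thinned shares, 2 excluded 0 upward and 5 downward, which became 5 and 13 with all UMIs and 6 and 7 after thinning to 1000 UMIs. The corresponding counts over all genes are not given, so these have no background. Shares with all UMIs also depend on depth, with a median of 5802 UMIs in DMSO and 5195 in MVC. Over 58 pairs and 8 alternatives, 446 of 464 log2 ratios stayed within the counting interval and 18 moved outside it, 13 of these after thinning, and no pair past the fold changed direction. The log2 ratio of Notch3 in MuSC-like cells was 1.61 and ranged from 1.29 to 1.70 over the 8 alternatives, and that of Heyl in SMC-like cells was -0.38 after thinning. The class with the highest level was the same for 8 to 10 of the 10 genes in each alternative. It moved to pericyte-like for Notch3 and arterial EC-like for Dll4 with the mean of each cell's level, to venous EC-like for Dll1 at resolution 2 and after thinning, and to SMC-like for Notch2 after thinning. The cause of these movements was not tested.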
